A study of Mus musculus with 27 samples.

Results

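The regions described here were narrow stretches of H3K4-methylated chromatin over the start sites of protein-coding genes in embryonic mouse hearts. They were chosen by measured width: each was a region of the merged H3K4me1, H3K4me2 and H3K4me3 list under 1000 bp wide that held at least 1 protein-coding transcription start site (TSS) of GENCODE vM1. There were 1273 such regions among 358833 merged regions, and they were 8.0% (7.59% to 8.43%) of the 15916 merged regions that held a protein-coding TSS. The other 14643 of these, called wide here, measured 1000 bp or more. Width came from the merged list over both genotypes and all 3 marks, so it describes the members and tests nothing about the mutants.

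A promoter is the stretch of DNA around a TSS from which a gene is transcribed. Active promoters usually carry H3K4me3 at the TSS and H3K4me2 and H3K4me1 on the flanking nucleosomes, and in many genes the marked stretch spreads over several nucleosomes. Many mammalian promoters lie in CpG islands, stretches rich in the dinucleotide CG, where H3K4 methylation can be laid down even when the gene is weakly transcribed. Promoters poor in CpG more often belong to genes used in few tissues. KMT2D is one of the enzymes that write this methylation.

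The study compared E11.5 hearts that lost KMT2D in heart muscle with control hearts, by ChIP-Seq for H3K4me1, H3K4me2 and H3K4me3 with matched input. Controls were *Tnnt2::Cre; Kmt2d*(fl/+); mTmG/+ and mutants *Tnnt2::Cre; Kmt2d*(fl/fl); mTmG/+, both C57BL/6, with 3 pools of 30 hearts per genotype. Control heart muscle cells therefore also lack 1 working copy of *Kmt2d* after recombination, and the *Tnnt2* promoter drives Cre in heart muscle only, so endocardial, epicardial, blood and other cells of the whole hearts keep the gene. The deposited lists give only coordinates, with no read count, fold change or value per pool, so read depth and the spread between pools are unknown, and fewer cells of a type cannot be told apart from less of a mark per cell. A region counts as decreased where its exact coordinates stand in the authors' list of lower H3K4me1 or lower H3K4me2 in mutants. The percent intervals are 95% Wilson intervals, which cover counting error only and treat regions as independent.

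The sequences upstream of the members that the results turn on show how different these promoters were. Each line gives the 60 bases before the most upstream protein-coding TSS inside the region, on the strand of the gene, from assembly NCBIM37 (mm9), with CpG dinucleotides in capitals. *Cmtm5* and *Rinl* carried the 2 members with lower H3K4me1, and *Fa2h*, *Tmem232* and *Adam5* the widest of those with lower H3K4me2. *Mesp2* and *Wnt5b* were added after their values were seen, as developmental regulators.
Cmtm5, chr14:55555247-55555306, plus strand: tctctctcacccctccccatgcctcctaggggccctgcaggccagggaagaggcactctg
Rinl, chr7:29573928-29573987, plus strand: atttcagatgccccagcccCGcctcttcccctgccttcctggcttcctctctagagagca
Fa2h, chr8:113917725-113917784, minus strand: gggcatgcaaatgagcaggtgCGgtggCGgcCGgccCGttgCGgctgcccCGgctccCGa
Tmem232, chr17:65890123-65890182, minus strand: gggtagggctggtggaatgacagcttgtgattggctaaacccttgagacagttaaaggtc
Adam5, chr8:25934842-25934901, minus strand: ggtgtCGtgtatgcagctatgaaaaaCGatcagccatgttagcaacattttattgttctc
Mesp2, chr7:86955553-86955612, plus strand: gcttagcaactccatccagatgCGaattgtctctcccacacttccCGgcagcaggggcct
Wnt5b, chr6:119417230-119417289, minus strand: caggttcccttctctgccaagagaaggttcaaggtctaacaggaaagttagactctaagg
The *Fa2h* stretch held 7 CpG in 60 bases, the *Cmtm5*, *Tmem232* and *Wnt5b* stretches held 0, and the *Rinl* stretch held 1. GC content was highest upstream of *Fa2h* (75%) and *Cmtm5* (66.7%) and lowest upstream of *Adam5*, below *Wnt5b* (46.7%). All 60 bases lay inside the narrow region in the other genes but not in *Mesp2*, whose region began only 27 bases before the TSS.

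Few narrow coding-promoter regions were in either decreased list. Lower H3K4me2 was called at 18 of the 1273 (1.41%, 0.896% to 2.22%), against 1.87% of all merged regions. Lower H3K4me1 was called at 2 (0.157%, 0.0431% to 0.571%), against 0.761% of all merged regions. No member was in both lists, against 0.0479% of all merged regions; the Wilson upper limit of 0 of 1273 is 0.301%, and 3 counts, a customary limit for a count of 0, would be 0.236%. In either list stood 20 members (1.57%), against 2.58% of all merged regions. For H3K4me2 the background share lay inside the interval of the members, so that share is no result about them. For H3K4me1 it lay above the interval. The H3K4me1 shares of narrow regions over non-coding TSS only (0.170%) and of narrow regions without any TSS (0.372%) lay inside that interval. The low share was thus not particular to the members. Wide coding-promoter regions were in the decreased H3K4me2 list far more often, 3955 of 14643 (27%, 26.3% to 27.7%), and in the H3K4me1 list at 157 (1.07%, 0.918% to 1.25%).

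**Figure D1:**
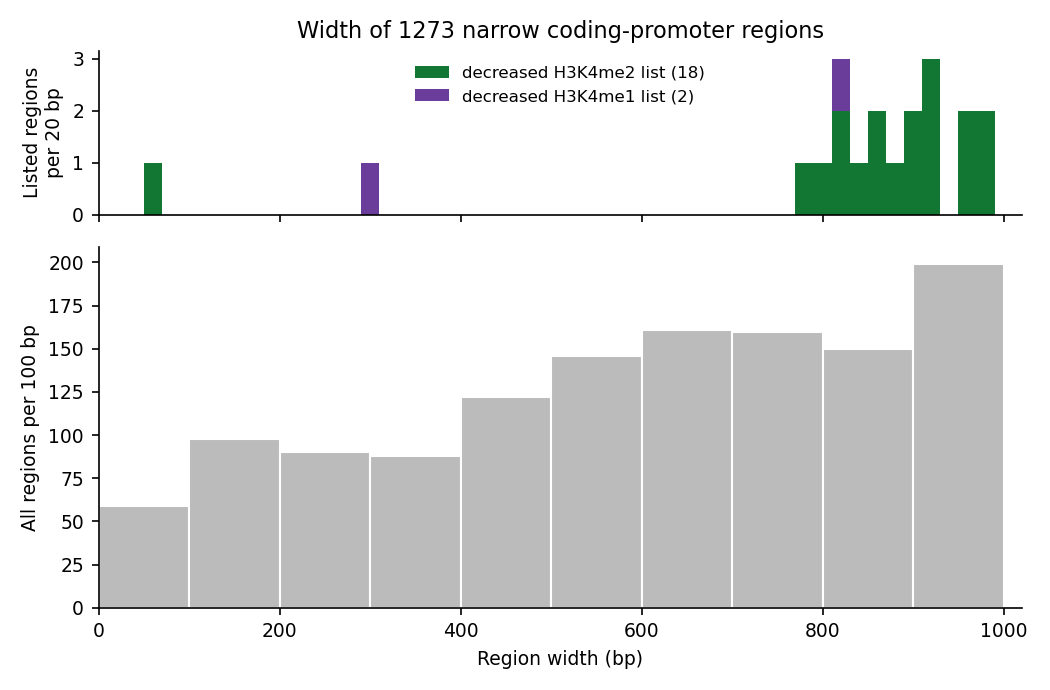
Lower panel: the number of narrow coding-promoter regions per 100 bp of width. Upper panel: the 20 of them in a decreased list, per 20 bp of width, coloured by list; 17 of the 20 were at least 800 bp wide, and the narrowest, at *Nrcam*, measured 60 bp.

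Member widths ran from the 60 bp minimum of the merged list to 980 bp, with the median at 620 bp and the quartiles at 380 and 820 bp, and 816 of them measured at least 500 bp. The listed members sat at the wide end, with a median of 870 bp. Among members of 500 to under 1000 bp, 17 of 816 (2.08%, 1.30% to 3.31%) were in the decreased H3K4me2 list, against 187 of 62997 (0.297%, 0.257% to 0.342%) merged regions of that width without a coding TSS. The order was the other way round for H3K4me1, with 1 of 816 (0.123%, 0.0216% to 0.691%) against 245 of 62997 (0.389%, 0.343% to 0.441%), intervals that overlap. The H3K4me2 difference lay at the wide end of this width class. At 500 to under 700 bp the members gave 0 of 307 (0% to 1.24%), against 0.187% of regions without a coding TSS. At 700 to under 800 bp they gave 1 of 160 (0.625%, 0.110% to 3.45%), against 0.352%. At 800 to under 900 bp they gave 7 of 150 (4.67%, 2.28% to 9.32%), against 0.469%. Below 500 bp the members gave only *Nrcam* for H3K4me2 and *Rinl* for H3K4me1. Merged regions under 100 bp without a coding TSS were in the H3K4me2 list at 802 of 74847 (1.07%) and in the H3K4me1 list at 423 (0.565%), so calls on very narrow regions were made elsewhere in the genome.

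On either side of the 1000 bp limit the shares were close. Coding-promoter regions of 900 to under 1000 bp were in the decreased H3K4me2 list at 9 of 199 (4.52%, 2.40% to 8.37%) and those of 1000 to under 1100 bp at 8 of 196 (4.08%, 2.08% to 7.85%). The 36 regions of exactly 980 bp, the last inside the limit, held 2 of these calls, and the 36 of exactly 1000 bp, the first outside it, held 1. The share then rose with width, to 165 of 1373 (12%) at 1500 to under 2000 bp and 1445 of 5792 (24.9%) at 2000 to under 4000 bp. The reads behind each call are unknown, and the part of width itself in this gradient was not tested.

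**Figure D2:**
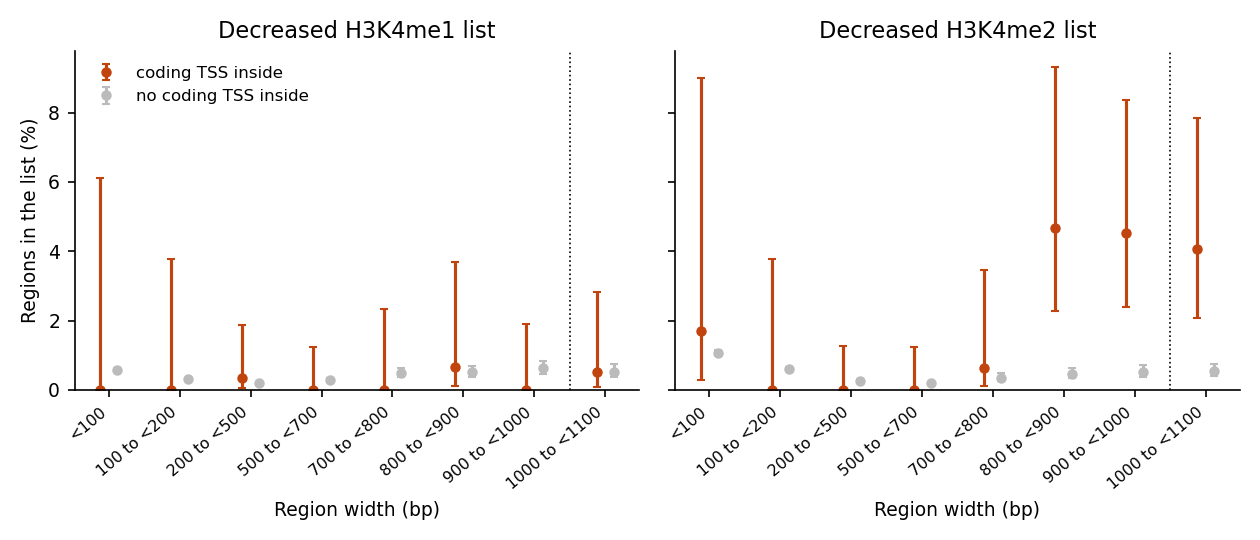
Percent of merged regions in the decreased H3K4me1 list (left) and decreased H3K4me2 list (right) by region width, for regions with a protein-coding TSS inside and regions without one; points are shares, bars are 95% Wilson intervals and the dotted line is the 1000 bp limit. In the 3 plotted classes from 800 to under 1100 bp, the coding-TSS regions lie at 4.08% to 4.67% for H3K4me2, above the 0.469% to 0.544% of regions without a coding TSS.

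Of the 18 members with lower H3K4me2, the widest were at *Fa2h* and *Tmem232*. *Fa2h* (ENSMUSG00000033579.9) encodes a fatty acid 2-hydroxylase that makes the hydroxylated sphingolipids of myelin. Its region, chr8:113917186-113918165, was 980 bp wide and took in both annotated coding TSS of the gene, with 270 bp of coding sequence, 72 bp of untranslated exon and 197 bp of intron. The promoter was GC-rich, at 71.7% over the 300 bases from 250 before to 50 after the TSS, with a CpG observed-over-expected ratio of 0.73, and the nearest wide region was 49460 bp away. *Tmem232* (ENSMUSG00000045036.7) encodes a transmembrane protein; its region, chr17:65889606-65890585, also measured 980 bp and held 2 of the 4 coding TSS of the gene, and the other 2 TSS lay 4669 and 2351 bp from the nearest merged region.

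Developmental regulators among them were *Mesp2* and *Wnt5b*. *Mesp2* (ENSMUSG00000030543.8) encodes a basic helix-loop-helix factor of somite segmentation and early mesoderm. Its 920 bp region, chr7:86955586-86956505, lay almost wholly on the gene, with 893 of its bases downstream of the TSS and 691 bp of coding sequence, and was the only merged region over the single coding TSS. *Wnt5b* (ENSMUSG00000030170.7) encodes a secreted Wnt ligand and has 3 coding TSS, each inside a region of its own. The listed region, chr6:119417146-119417945, covered the middle TSS inside the gene with 716 bp of intron and 84 bp of untranslated exon; the regions at the other 2 TSS were 3480 and 2660 bp wide and in neither list.

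*Nrsn1* and *Nrcam* encode proteins of neurons. *Nrsn1* gives neurensin, a membrane protein of vesicles, and *Nrcam* a cell adhesion molecule of the immunoglobulin family. The *Nrsn1* region, chr13:25361246-25362165, was 920 bp wide with a CpG ratio of 0.60, 79560 bp from the nearest wide region. The *Nrcam* region, chr12:45684006-45684065, had the minimum width of the list, 60 bp, and lay over an internal TSS with 27 bp upstream and 33 bp downstream. Its 300 bases had the lowest GC content of all listed members, 37.7%, and no CpG. The 2140 bp region at the upstream TSS pair of *Nrcam* was in neither list.

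*Irak2* encodes a kinase of interleukin-1 and Toll-like receptor signalling, and its 880 bp region, chr6:113588106-113588985, took in the 4 most upstream of its 6 coding TSS. The other 2 lay together in a region of 1880 bp that was in neither list. *Procr*, which encodes the endothelial receptor of protein C, falls outside the rule for named genes and completes the list: its 840 bp region, chr2:155576486-155577325, covered both coding TSS.

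Further members were at *Adam5*, a disintegrin and metalloprotease family gene, *Calr3*, a calreticulin gene of testis, and *Dynlrb2*, which encodes a light chain of dynein. The *Adam5* region, chr8:25934046-25935005, was 960 bp wide and the *Dynlrb2* region, chr8:119028246-119029065, 820 bp. The *Calr3* region, chr8:74958966-74959785, lay inside the gene with 730 bp of intron and 90 bp of untranslated exon, whereas the main upstream region of *Calr3*, 3060 bp wide, was in neither list. With *Fa2h*, these made 4 listed members among the 56 on chromosome 8, against 20 of all 1273 members (1.57%). This count, picked out as the highest of the 11 chromosomes that held one, is too small to separate the chromosomes.

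The remaining members with lower H3K4me2 were at *Tmem117* (chr15:94459206-94460165, 960 bp), *Gm9978* (chr10:77949806-77950725, 920 bp), *Zfp455* (chr13:67295246-67296145, 900 bp), *Dcaf12l2* (chrX:41720726-41721625, 900 bp), *Tmem74* (chr15:43701046-43701905, 860 bp), *Gm14698* (chrX:66073786-66074645, 860 bp) and *Gm2897* (chr14:3049006-3049785, 780 bp). *Zfp455* is a zinc finger gene and *Tmem117* and *Tmem74* encode transmembrane proteins. The *Tmem117* promoter had the highest GC content and CpG ratio of the listed members, 78.0% and 0.88. Reads at *Gm14698* and *Gm2897* are less certainly placed, since 51.3% and 63.6% of the 32-base words of these regions occur more than once in the assembly.

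Both members with lower H3K4me1 belonged to genes with 1 coding TSS. *Cmtm5* (ENSMUSG00000040759.7) encodes a chemokine-like factor with a MARVEL transmembrane domain. Its region, chr14:55554946-55555765, was 820 bp wide, with 361 bp before the TSS, 126 bp of coding sequence and a CpG ratio of 0.04, and the nearest wide region, 8200 bp away over the TSS of *Efs*, was in the decreased H3K4me2 list. *Rinl* (ENSMUSG00000051735.6) encodes a Ras and Rab interactor-like protein. Its region, chr7:29573886-29574185, measured only 300 bp, with 161 bp of intron and a CpG ratio of 0.12. In both, the CpG ratio was below that of all but 1 (*Nrcam*) of the 18 listed for H3K4me2.

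**Figure D3:**
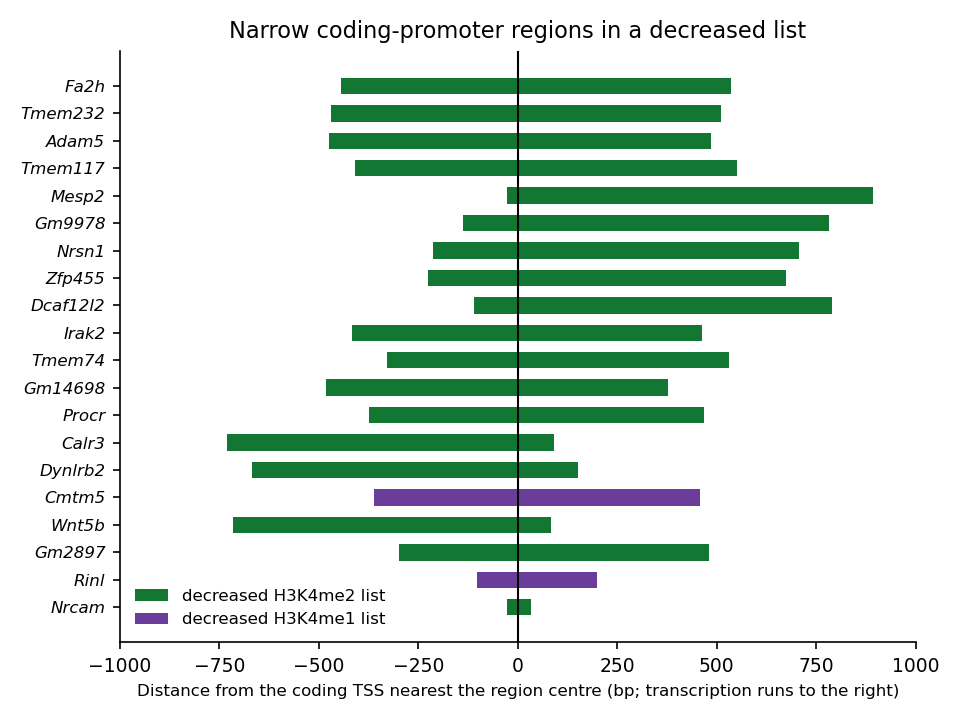
Position of the 20 narrow coding-promoter regions in a decreased list relative to the protein-coding TSS nearest the region centre, in bp, with transcription to the right; bars are regions, coloured by list and ordered by width. In 16 of 20 more of the region lies downstream than upstream of the TSS, and at *Calr3*, *Wnt5b*, *Dynlrb2* and *Gm14698* more of it lies upstream.

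Of the 20 listed members, 16 belonged to genes covered only by narrow regions and 4 (*Irak2*, *Calr3*, *Wnt5b* and *Nrcam*) to genes that also had a wide region over another coding TSS. In none of these 4 genes was the wide region over a coding TSS in a decreased list. Elsewhere in the gene, *Irak2* and *Wnt5b* held a further region with lower H3K4me2, so that each had 2 with the member included, while the member was the only 1 over *Calr3* and *Nrcam*. These 4 genes were picked by the call at their narrow region, so they cannot be set against all genes with both kinds of region. Among 415 genes with both kinds, the wide region was in the decreased H3K4me2 list in 110 (26.5%, 22.5% to 31%) and the narrow region in 4 (0.964%, 0.375% to 2.45%). In none of the 415 genes did both kinds of region have the call, which with only 4 narrow calls is no result. The nearest merged region of each of the 20 listed members was in neither list, against 2.58% of all merged regions in either. No other decreased region lay within 5 kb of any of the 20 (0% to 16.1%). Over all members, another region with lower H3K4me1 lay within 5 kb of 1.41%, and with lower H3K4me2 of 4.40%. Both shares lie inside that interval, so these counts are no result about the listed members.

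The members fell into those of narrow-only genes and those of genes with a wide region too, and these differed in place. In 835 members every gene was covered only by narrow regions, and 710 of these (85.0%, 82.4% to 87.3%) held the most upstream coding TSS of a gene. In 435 members the gene also had a wide region, and 85 (19.5%, 16.1% to 23.5%) held the most upstream TSS; in 281 of the 415 genes (67.7%) every narrow TSS lay downstream of every wide one. The remaining 3 members joined both kinds of gene. The share with lower H3K4me2 was 14 of 835 (1.68%, 1.00% to 2.79%) in the first sort and 4 of 435 (0.920%, 0.358% to 2.34%) in the second, with intervals that overlap.

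Narrow coding promoters were poor in CpG. The median CpG observed-over-expected ratio over the 300 bases was 0.30 (quartiles 0.17 and 0.45), against 0.73 (quartiles 0.47 and 0.89) at wide coding promoters, and the median GC content was 51.7% against 61.3%. GC content over 50% together with a ratio over 0.6 was found in 138 members (10.8%, 9.25% to 12.7%) and in 8972 wide promoters (61.3%). Read the other way, narrow regions were 419 of 1494 coding-promoter regions with a ratio under 0.2 (28.0%, 25.8% to 30.4%), 457 of 2354 from 0.2 to under 0.4 (19.4%), 228 of 2474 from 0.4 to under 0.6 (9.22%) and 169 of 9594 from 0.6 on (1.76%, 1.52% to 2.04%). Over the whole region the order of GC content turned, with a median of 52.3% in members and 50.5% in wide regions, which reach far beyond the TSS, whereas the CpG ratio stayed lower in members, at 0.31 against 0.46.

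**Figure D4:**
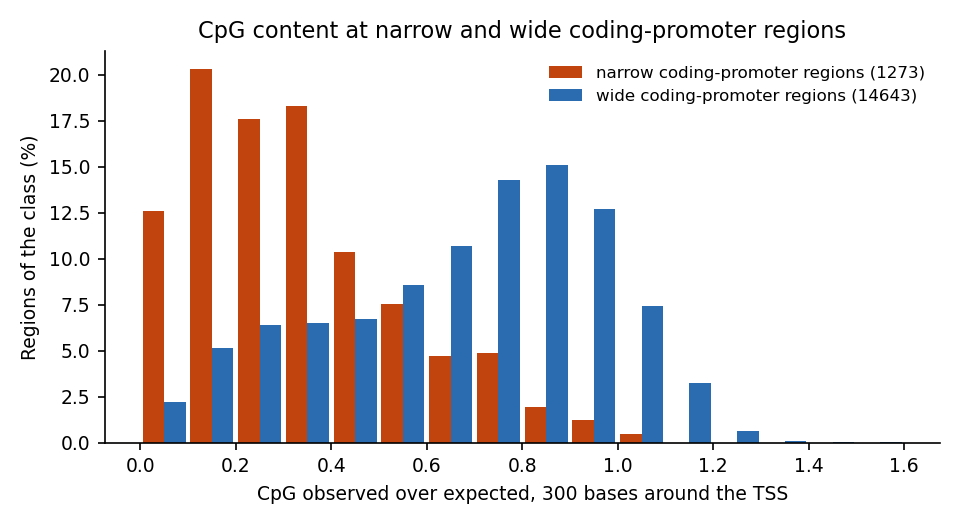
Percent of narrow and of wide coding-promoter regions by the CpG observed-over-expected ratio of the 300 bases around the TSS, in steps of 0.1. The narrow regions peak below 0.4 and the wide regions between 0.7 and 1.

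The letters of core promoter elements differed in the same windows. GGGCGG, the GC box, stood on either strand in 294 members (23.1%, 20.9% to 25.5%) and in 8828 wide promoters (60.3%, 59.5% to 61.1%). TATAAA stood on the gene strand between 40 and 16 bases before the TSS in 36 members (2.83%, 2.05% to 3.89%) and in 140 wide promoters (0.956%, 0.811% to 1.13%). Members of narrow-only genes held it in 33 of 835 (3.95%, 2.83% to 5.50%). Members of genes with a wide region too held it in 3 of 435 (0.690%, 0.235% to 2.01%), an interval that holds the share of wide promoters. CCAAT, on either strand in the 150 bases before the TSS, was about as frequent in members (22.5%) as in wide promoters (23.6%). Of the 20 listed members, 10 held GGGCGG, 4 held CCAAT and 0 held TATAAA. The CpG ratio of the listed members, at a median of 0.52, was above that of all members. The listed members sat at the wide end, and the ratio was higher there in general. Its median was 0.42, 0.44 and 0.42 at members of exactly 940, 960 and 980 bp, and 0.25 at members under 500 bp. The part of width in this difference was not tested. Within each of the 4 CpG classes, lower H3K4me2 was called less often at narrow than at wide promoters, from 3 of 419 (0.716%) against 96 of 1075 (8.93%) below 0.2 to 5 of 169 (2.96%) against 3239 of 9425 (34.4%) from 0.6 on.

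The members extended about evenly to either side of the TSS, with medians of 237 bp upstream and 281 bp downstream. In 713 of them (56.0%, 53.3% to 58.7%) the downstream part was the larger, against 75.4% of wide regions, whose medians were 1250 and 2150 bp. In base pairs, 14.3% of the member sequence was coding sequence, 18.5% untranslated exon and 27.2% outside protein-coding transcripts, the rest being intron. Of the members, 521 members (40.9%) lay wholly inside such transcripts. A single coding TSS was held by 1007 members (79.1%), against 49.1% of wide regions, and TSS of more than 1 coding gene by 14 (1.10%), against 10.7%.

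Many narrow regions were not isolated. A wide region lay within 5 kb of 497 members (39.0%, 36.4% to 41.8%), against 7577 of 14643 wide coding-promoter regions (51.7%), and upstream (261) about as often as downstream (236). Only 150 of these 497 wide neighbours (30.2%) held a coding TSS themselves. At the other end, no wide region lay within 50 kb of 185 members (14.5%, 12.7% to 16.6%), against 5.34% of wide regions. Repeated sequence touched few: more than 50% of the 32-base words were repeated in 40 members (3.14%).

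At the level of genes, 15610 of 22359 annotated protein-coding genes had a coding TSS inside a merged region. Of these, 832 (5.33%, 4.99% to 5.69%) were covered only by narrow regions, 415 (2.66%) by narrow and wide regions and 14363 (92.0%) by wide regions only. Lower H3K4me1 or H3K4me2 was called at 16 of the 832 (1.92%, 1.19% to 3.10%), against 4544 of the 14363 (31.6%, 30.9% to 32.4%). The narrow-only genes had 1 exon in every coding transcript in 8.17% of cases, against 3.93% of wide-only and 32.9% of uncovered genes, and a provisional symbol of the Gm or Rik kind in 18%, against 8.27% and 31.3%. On both measures they stood between wide-only and uncovered genes. The X chromosome held 53 of them (6.37%, 4.90% to 8.24%), against 2.91% of wide-only and 6.67% of uncovered genes.

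**Figure D5:**
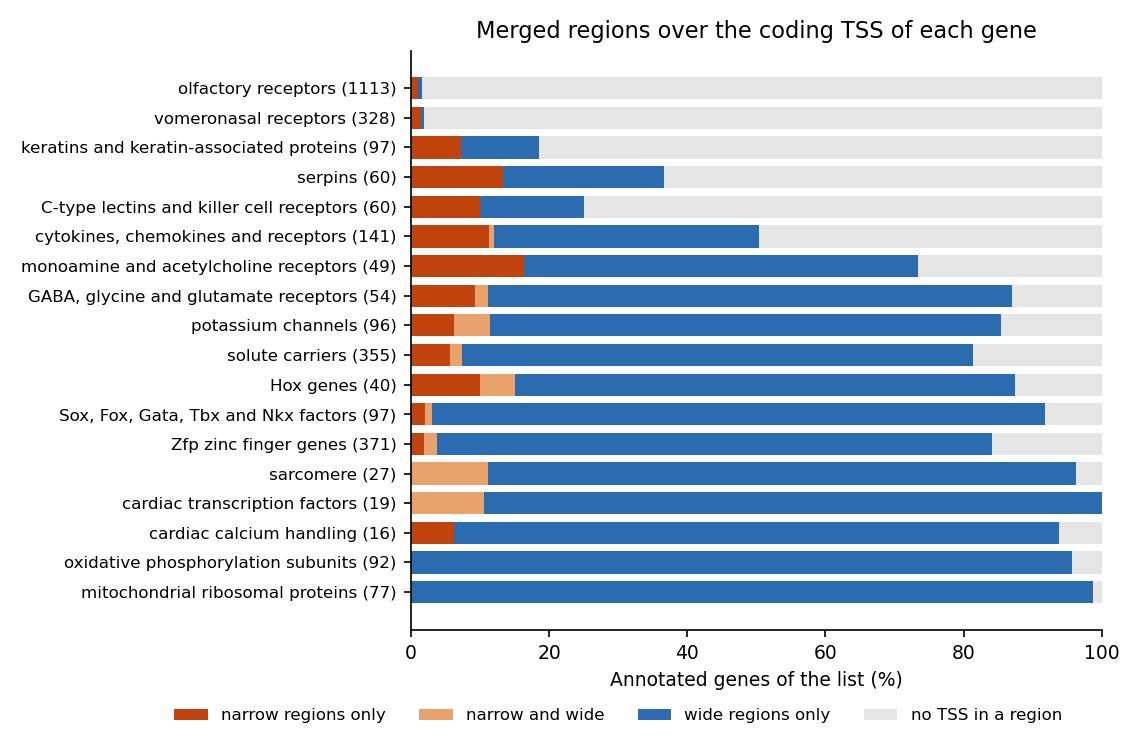
Percent of the annotated genes of 18 gene lists, with the number of genes in parentheses, whose protein-coding TSS lay in narrow regions only, in narrow and wide regions, in wide regions only or in no merged region. Narrow-only genes are 8 of 49 monoamine and acetylcholine receptors and 0 of the sarcomere genes, cardiac transcription factors, oxidative phosphorylation subunits and mitochondrial ribosomal proteins.

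Genes of sense organs and skin were mostly without any merged region, and where covered were often covered narrowly. Of 1113 olfactory receptor genes, which encode odorant receptors of the nose, 17 were covered, 11 of them only narrowly; the widest of these were *Olfr308* at 780 bp, *Olfr573-ps1* at 760 bp, *Olfr577* at 680 bp and *Olfr1438-ps1* at 600 bp. Of 328 vomeronasal receptors, 6 were covered and 5 only narrowly, with *Vmn1r70* at 640 bp the widest. Keratins and keratin-associated proteins, the filament proteins of skin and hair, had 18 of 97 genes covered and 7 only narrowly, among them *Krt20* and *Krt9* at 640 bp, *Krt75* at 580 bp and *Krtap11-1* at 520 bp. Against 5.33% of all covered genes, the narrow-only shares were 64.7% (41.3% to 82.7%), 83.3% (43.6% to 97%) and 38.9% (20.3% to 61.4%).

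Immune genes formed the next group. Among 141 genes of cytokines, chemokines and their receptors, 71 were covered and 16 only narrowly (22.5%, 14.4% to 33.5%). The widest regions were at *Il10ra* and *Il9r* (960 bp each), receptors for interleukin-10 and interleukin-9, *Il4* (940 bp), the type 2 helper cytokine, and *Ccl20* (900 bp), a chemokine. C-type lectins and killer cell receptors had 6 narrow-only genes among 15 covered, led by *Clec18a* at 920 bp and *Klra17* at 880 bp, then *Clec1a* at 800 bp and *Klra7* at 660 bp. Of 14 immune cell markers, 9 were without cover, 3 were wide-only and 2 narrow-only (40% of those covered, 11.8% to 76.9%). The narrow-only markers were *Itgam*, an integrin of macrophages, and *Cd68*, a macrophage glycoprotein, with regions of 300 and 160 bp. The *Cd68* region lay 880 bp from a region of 4960 bp that covered no coding TSS of this gene.

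Neurotransmitter receptors and channels were mostly covered by wide regions, with a narrow-only minority. Of 49 receptors for monoamines and acetylcholine, 36 were covered and 8 only narrowly (22.2%, 11.7% to 38.1%), and 6 of these 8 were serotonin receptors: *Htr4* (960 bp), *Htr2c* (860 bp), *Htr2b* (780 bp), *Htr5a* (700 bp), *Htr3a* (660 bp) and *Htr3b* (420 bp), the last pair named after their values were seen. The *Htr2c* promoter was rich in CpG, with a ratio of 1.02, and *Htr3a* poor, with 0.17. Of 47 covered receptors for GABA, glycine and glutamate, 5 were narrow-only (10.6%, 4.63% to 22.6%), among them *Gabrd* (960 bp), *Gabrq* (920 bp) and *Gabrr3* (480 bp). Of 82 covered potassium channel genes, 6 were narrow-only (7.32%, 3.40% to 15.1%), the widest at *Kcne1l* (960 bp), *Kcnj6* (860 bp), *Kcnk15* (640 bp) and *Kcnj16* (520 bp). Among 30 covered sodium and calcium channels *Cacnb4* was narrow-only, at 960 bp (3.33%, 0.591% to 16.7%). The 5.33% of all covered genes lay inside the intervals of the GABA, glycine and glutamate receptors and of both channel lists.

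Serpins and solute carriers, the inhibitors and transporters of many epithelia, gave 8 of 22 covered serpins (36.4%, 19.7% to 57.0%) and 20 of 289 covered solute carriers (6.92%, 4.52% to 10.4%). The widest serpin regions were at *Serpina3a* (880 bp), *Serpina3n* (840 bp), *Serpinb6c* (800 bp) and *Serpina3b* (760 bp), the 3 *Serpina3* genes lying together on chromosome 12. The widest solute carrier regions were at *Slc9a3* (980 bp), a sodium-proton exchanger, *Slc2a12* (960 bp), a glucose transporter, *Slc8a1* (960 bp) and *Slc45a1* (940 bp). Among enzymes of drug and steroid metabolism, 3 of 29 covered cytochrome P450 genes were narrow-only (10.3%, 3.58% to 26.4%). Of 9 covered glucuronosyl- and sulfotransferases 4 were (44.4%, 18.9% to 73.3%). The 5.33% of all covered genes lay inside the intervals of the solute carriers and the cytochrome P450 genes.

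Of the Hox genes, which set identity along the body axis, 35 of 40 were covered and 4 only narrowly, all in the HoxC cluster on chromosome 15. They were *Hoxc8* (980 bp, chr15:102820426-102821405), *Hoxc9* (920 bp, chr15:102807306-102808225), *Hoxc10* (660 bp, chr15:102796926-102797585) and *Hoxc12* (600 bp, chr15:102767186-102767785). Their CpG ratios were high, at 0.91, 0.62, 0.80 and 0.86. The narrow-only share of covered Hox genes, 11.4% (4.54% to 26%), has an interval that holds the 5.33% of all covered genes. *Hoxc4* and *Hoxd3* had narrow and wide regions, and none of the 35 covered Hox genes, 29 of them wide-only, was called for either mark, against 31.6% of all wide-only genes. Of 89 covered Sox, Fox, Gata, Tbx and Nkx factors, *Foxi2* (940 bp) and *Tbx22* (920 bp) were narrow-only (2.25%, 0.618% to 7.83%), an interval that also holds 5.33%. Of 312 covered Zfp zinc finger genes 7 were narrow-only (2.24%, 1.09% to 4.56%). The widest of those were *Zfp773* at 940 bp, *Zfp455* at 900 bp, *Zfp775* at 840 bp and *Zfp445* at 560 bp. Of the 138 narrow-only genes in any of the 40 lists, *Zfp455* alone was in a decreased list, against 16 of all 832 narrow-only genes (1.92%), and counts this small do not separate the lists from one another.

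Genes of the heart itself were covered mostly by wide regions, as were covered genes in general (92.0% by wide regions only). None of 26 covered sarcomere genes (0% to 12.9%) and none of 19 cardiac transcription factors (0% to 16.8%) was narrow-only. Both intervals hold the 5.33% of all covered genes, so these counts are no result about heart genes. In genes picked out after their values were seen, narrow regions lay over a further TSS of *Nebl* (840 bp), *Smyd1* (760 bp) and *Tnni1* (620 bp), a Z-disc protein, a muscle methyltransferase and a troponin subunit, and of *Tbx3* (860 bp) and *Mef2c* (640 bp), a T-box factor and a MADS-box factor. The wide regions of these genes reached 9940, 5940, 11480, 9380 and 12100 bp, and lower H3K4me2 was called at a wide region of *Nebl* and of *Smyd1*. Likewise *Npr3* of the endocardium (700 bp) and *Bnc1* of the epicardium (800 bp) had a narrow region beside wide ones of up to 10380 and 2000 bp.

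*Slc8a1*, which encodes the sodium-calcium exchanger of heart muscle, was the only narrow-only gene among 15 covered genes of cardiac calcium handling. It was also the only 1 among 16 genes that the study names. These shares, 6.67% and 6.25%, were near the 5.33% of all covered genes. Of the 3 annotated coding TSS of *Slc8a1*, 1 (position 82048623, minus strand) lay inside a region of 960 bp, chr17:82047726-82048685. The most upstream TSS lay 262 bp outside that region, and the third 1659 bp from a region of 80 bp. A region of 3100 bp lay 1000 bp from the narrow one, and 85 merged regions stood over the gene, 26 of them wide and the widest 6620 bp. None of these was in either decreased list, against 2.58% of all merged regions.

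Some lists of genes that most cells use had a narrow-only share below the 5.33% of all covered genes. None of 76 covered mitochondrial ribosomal proteins (0% to 4.81%) and none of 88 covered oxidative phosphorylation subunits (0% to 4.18%) was narrow-only. Both intervals lie below 5.33%. The single narrow-only gene among 95 covered cytoplasmic ribosomal proteins was *Rpl3l* (980 bp), a muscle form of ribosomal protein L3. That share, 1.05% (0.186% to 5.72%), has an interval that holds 5.33%. The 2 narrow-only genes among 42 proteasome genes were *Psma8* (840 bp) and *Psmb11* (640 bp), subunits of the testis and thymus forms. Of 59 covered replication-dependent histone genes, 3 were narrow-only, at *Hist1h4n* (760 bp), *Hist1h2al* (420 bp) and *Hist1h4m* (160 bp). The proteasome and histone shares, 4.76% (1.32% to 15.8%) and 5.08% (1.74% to 13.9%), were near that of all covered genes.

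Markers of several cell types were looked up in the merged regions. All 8 heart muscle, 6 endothelial, 4 epicardial and 5 erythroid markers had a wide region over a coding TSS, and so did all 5 neuronal markers. Wide cover of a marker therefore did not tell heart cells from neurons and is no check of the tissue. Of 5 markers each, wide regions covered 1 for liver, 1 for lymphoid cells and 1 for germ cells. The narrow-only ones were *Ahsg* (720 bp) and *Apoa1* (180 bp), plasma proteins of the liver, and *Prm1* (660 bp), a protamine of sperm. On the longer lists, *Tnp2* (360 bp) and *Stra8* (220 bp) of germ cells were narrow-only too. Of the 14 germ cell genes, 3 were narrow-only, 3 wide-only and 8 without cover. The only narrow-only gene among 11 covered erythroid genes was *Hbb-b1* (620 bp), an adult beta globin, and the other 10 were wide-only. That share (9.09%, 1.62% to 37.7%) has an interval that holds the 5.33% of all covered genes. The *Hbb-b1* region held 2 coding TSS, with no CpG in the 300 bases and the nearest wide region 11500 bp away.

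Members were spread over the autosomes at 5.65% of coding-promoter regions on chromosome 19 to 10.1% on chromosome 17, and were most frequent on the X chromosome, at 65 of 487 (13.3%, 10.6% to 16.7%). The X chromosome carried 2 of the 20 listed members, *Dcaf12l2* and *Gm14698*. *Dcaf12l2* encodes a WD-repeat protein, and its nearest wide region, 420680 bp away at *Dcaf12l1*, was in the decreased H3K4me2 list as well.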

How the data were processed

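Hearts at E11.5 were profiled by ChIP-Seq in 24 libraries (input, H3K4me1, H3K4me2 and H3K4me3, 3 pools per genotype); 3 further KMT2D ChIP-Exo libraries were not analysed here. Samples were grouped by their titles. Per the labels, the authors used CASAVA 1.8.2, FastQC, Bowtie2, Bowtie and SAMtools with build mm9; the peak caller and the test behind the decreased lists are not given in the sources used here. The authors called peaks, merged them over replicates and marks, and deposited 3 lists of region starts and ends: merged (358833), lower H3K4me1 (2730) and lower H3K4me2 (6699), used here as deposited. The last region of every chromosome ended within NCBIM37. Starts are given 1-based.

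Every decreased region matched a merged region exactly. A protein-coding TSS was the start of a protein-coding transcript of a protein-coding gene. GC content and CpG ratio (CpG count times length over C count times G count) were taken from 250 bases before to 50 after the coding TSS nearest the region centre. Distances run edge to edge. Functions were tested on simulated regions. Shares have 95% Wilson intervals; no test was run, since no value per sample exists. Python 3 with NumPy, pandas and statsmodels was used.

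Named genes were those of the 12 widest and 5 narrowest members of each decreased list, per gene list those in a decreased list and up to 4 more by width, and genes the study names; 1 of these is not reported here. Members and lists were chosen with earlier results of these data known.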

Additional observations from a re-analysis of the deposited data

How the results depend on the processing

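Of 46 values recomputed under alternative settings, 35 stayed within the interval of the value reported (for medians, within 1 SD over regions) and 11 moved. With a width limit of 500 bp, the share in the decreased H3K4me2 list was 0.219%, the share of covered genes that were narrow-only 1.68% and the share of those in either list 0.382%. With a limit of 2000 bp these were 6.38%, 18.1% and 7.99%. Without automatically annotated transcripts the share in the decreased H3K4me1 list was 0%, since both genes called there, *Cmtm5* and *Rinl*, have no manually annotated coding transcript. Counting a TSS up to 500 bp outside a region made 10.6% of covered genes narrow-only. A wide region lay within 2 kb of 19.4% and within 10 kb of 55.1% of members, and within 5 kb of 42.8% with the TSS of every transcript of coding genes. No member was in both lists under any setting tried. No paired analysis was possible because the lists hold no value per replicate, and leaving out a pool was not possible for the same reason. Depth limits every call in an unknown degree: the lists give neither reads nor scores, and a region outside a decreased list may still have changed.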
